A study of Homo sapiens with 3 samples.

Results

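The DEAD and DEAH box helicase genes were taken as the protein-coding genes of the RefSeq table of GRCh38 whose symbol is DDX or DHX followed by a number. There were 54 of them, 38 with a DDX and 16 with a DHX symbol, among 20046 protein-coding genes placed on chromosomes. The rule uses the symbol alone, and the set was proposed with earlier results of these data known. The proteins themselves were not examined here.

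The data are lists of GoldCLIP peaks from HCT116, a long-used line of human colorectal carcinoma cells. In GoldCLIP, a crosslinking method, the HaloTag fixes a fusion protein covalently to beads, so that RNA crosslinked to it can be sequenced after harsh washes. The series has 3 samples of this line with 1 library each, whose genotypes are given as HaloTag alone, RPL22-HaloTag and RPL22L1-HaloTag. RPL22, a component of the large subunit of the ribosome, and RPL22L1, its paralog, give their names to the RPL22 list and the RPL22L1 list. The library of HaloTag alone was not analysed here, so no background from it stands beside any value. How the fusions were introduced and whether the cells were clones is not given in the sources used here.

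The lists held 154000 and 254413 peaks, and the number of reads behind them is unknown. With 1 library per group there was no replicate and no test, so every difference below describes these libraries and not the conditions. Intervals in parentheses are exact 95% intervals, Clopper-Pearson for shares and Poisson for sums, and cover counting error only. Those over summits or peaks treat the summits of a gene as independent, so they may be too narrow. How much RNA of each gene the cells held was not measured in these files, so more binding and more RNA cannot be told apart for any gene named below.

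DEAD and DEAH box proteins are ATPases, most of which open RNA duplexes or strip proteins from RNA. They take their names from the amino acids of a shared motif that binds and cleaves ATP. Different members drive steps of pre-mRNA splicing, the assembly of ribosomal subunits, the export of mRNA, the start of translation, mRNA decay and the sensing of viral RNA. Here they are described as genes whose RNA may be bound by a ribosomal protein, not as proteins acting on it.

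Short stretches within 4 of the genes are shown first, since each lies under a peak or is touched by one and is held in a sequence table. DHX9 and DDX42 were the members whose promoter window held a peak of both lists, and DDX5 and DHX30 were those in which a peak reached a hosted microRNA hairpin. The sequences were taken from RefSeq tables of GRCh38.p14 and are written from 5′ to 3′. In the DHX9 stretch at chr1:182839353-182839382 on the plus strand, all 30 bases, in capitals, lay within a peak of each list.
DHX9: TCGCCGATTCCTCCATGCGAGTTGCTGTGC
The DDX42 stretch at chr17:63774059-63774088 on the plus strand is the RPL22 peak, and capitals mark the 25 bases that the RPL22L1 peak shared.
DDX42: TGAGGAGCCTGTGAGGCGTTCTGGAgcttt
The hairpin of MIR3064, inside DDX5 on chromosome 17 from 64500774 to 64500839 on the minus strand, lay whole under an RPL22L1 peak, as its capitals mark.
MIR3064: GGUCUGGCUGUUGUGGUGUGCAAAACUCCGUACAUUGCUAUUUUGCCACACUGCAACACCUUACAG
The hairpin of MIR1226, inside DHX30 on chromosome 3 from 47849555 to 47849629 on the plus strand, shared its first 3 bases, in capitals, with an RPL22 peak.
MIR1226: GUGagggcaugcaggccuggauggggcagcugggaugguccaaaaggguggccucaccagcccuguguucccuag
The mature microRNAs of both hairpins are given with the seed, bases 2 to 8, in capitals. No seed was shared among them.
hsa-miR-3064-5p: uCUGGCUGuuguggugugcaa
hsa-miR-3064-3p: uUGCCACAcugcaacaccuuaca
hsa-miR-1226-5p: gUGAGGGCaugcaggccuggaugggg
hsa-miR-1226-3p: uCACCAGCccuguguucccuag

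Most helicase genes held peaks of both fusions. A gene was counted when at least 1 summit, the highest point of a peak, lay within its bounds. In the RPL22 list 46 of 54 helicase genes had a summit, or 85.2% (72.9 to 93.4%), where 68.3% of all protein-coding genes did. In the RPL22L1 list 48 did, or 88.9% (77.4 to 95.8%), where 69.8% of all protein-coding genes did. Both shares lay above the share of all protein-coding genes, and both lower bounds did too. All 46 genes with an RPL22 summit also had an RPL22L1 summit. DDX25 and DDX52 had an RPL22L1 summit only, 3.70% of members where 6.64% of protein-coding genes had this pattern. The remaining 6 genes, DHX16, DDX39B, DDX43, DDX24, DDX53 and DDX3Y, had no summit in either list, or 11.1% (4.19 to 22.6%), where 25% of protein-coding genes had none.

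Gene length moved with these counts. Helicase genes spanned 2.317 kb for DDX28 to 275.859 kb for DDX10, with a median of 30.02 kb, where the median of all protein-coding genes was 24.1 kb. Across the 54 genes the number of summits correlated with length at a Spearman's rho of 0.66 in both lists, a description across genes that share a library. The comparison was therefore repeated among genes of like length. Of the 17 helicase genes under 20 kb, 76.5% had an RPL22 summit and 76.5% an RPL22L1 summit, where 49.6% and 51.1% of the protein-coding genes of that length did. From 20 to 40 kb 12 of 16 helicase genes had an RPL22 summit and 14 an RPL22L1 summit, beside 77.2% and 78.7% of all protein-coding genes of that length. Their medians were 8 RPL22 and 13 RPL22L1 summits, beside 5 and 6. All 21 longer helicase genes had summits in both lists, as did most long genes, with 82.0% and 83.3% of protein-coding genes from 40 to 60 kb and 88.5% and 90.1% of those above 60 kb. From 40 to 60 kb the 11 helicase genes had medians of 13 RPL22 and 35 RPL22L1 summits, beside 8 and 10 in all protein-coding genes of that length.

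The helicase genes held 526 summits of the RPL22 list (482 to 573) and 1179 of the RPL22L1 list (1113 to 1248). The median gene had 8 RPL22 and 14.5 RPL22L1 summits, where the median protein-coding gene had 3 and 4. Per kb of gene the medians were 0.250 and 0.538 summits, beside 0.0991 and 0.128 over all protein-coding genes. DDX10, a nucleolar helicase and the longest member, held the most summits in both lists, 45 and 122. Without DDX10, an alternative added after its values were seen, the sums were 481 and 1057. DDX60L followed in both lists with 31 and 95 summits.

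**Figure D1:**
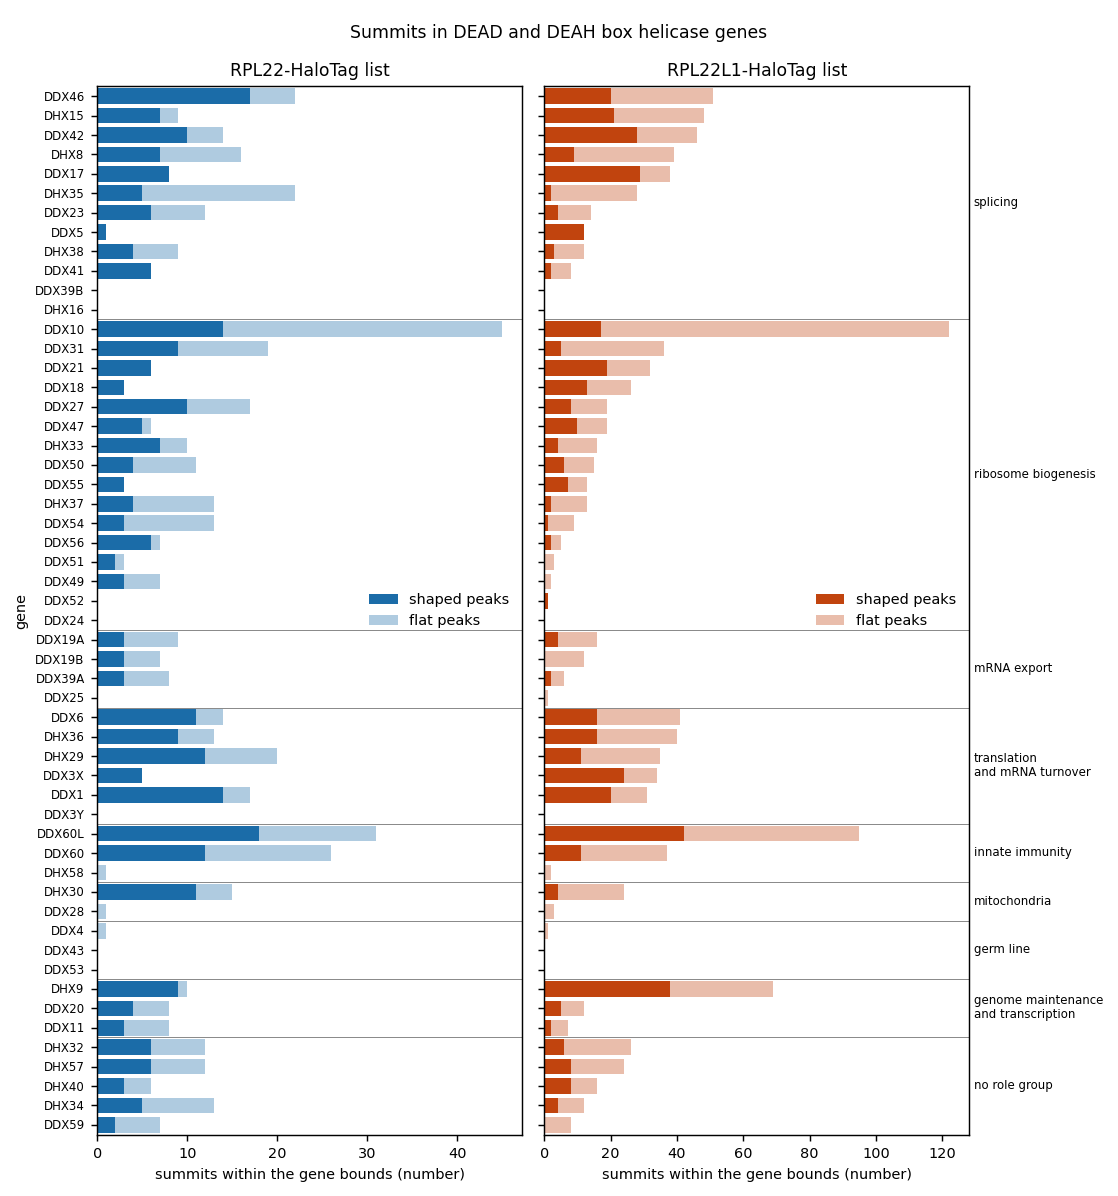
Number of summits within the bounds of each of the 54 helicase genes in the RPL22-HaloTag list (left) and the RPL22L1-HaloTag list (right), 1 library each, ordered by role; the scales of the panels differ. Dark bars are shaped peaks and pale bars flat peaks, and a gene in more than 1 role group is drawn once; DDX10 is highest in both panels with 45 and 122 summits, and 6 genes have none in either.

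Peaks of both lists fell into a flat and a shaped kind. A flat peak was 30 bases wide with its summit at offset 15, and every other peak was called shaped. Flat peaks were a smaller part of the peaks in helicase genes than in other genes. In the RPL22 list 237 of 526 were flat, or 45.1% (40.7 to 49.4%), where the share over all protein-coding genes was 61.5%. In the RPL22L1 list 733 of 1179 were flat, or 62.2% (59.3 to 64.9%), where it was 76.4%. At least 1 shaped summit was present in 43 helicase genes in the RPL22 list, or 79.6% (66.5 to 89.4%), where 51.7% of protein-coding genes had one. In the RPL22L1 list 40 did, or 74.1% (60.3 to 85.0%), where 45.4% did. In DDX5, DDX17, DDX21, DDX3X, DDX18, DDX41 and DDX55 all RPL22 peaks were shaped. DDX10 went the other way, with 14 shaped of 45 peaks and 17 shaped of 122.

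The balance between the lists was compared next. Because the lists differ in length, the RPL22L1 list was reduced to its 154000 highest-scoring peaks, which gave 697 summits in helicase genes beside the 526 of the RPL22 list. RPL22L1 summits were thus 57.0% (54.2 to 59.8%) of the summits in helicase genes and 50.3% of those in all protein-coding genes. More RPL22L1 than RPL22 summits were found in 26 of 54 helicase genes, where 29.4% of protein-coding genes (5901) had more. Fewer were found in 19, where 35.8% (7185) had fewer. The shares include genes without a summit in either whole list, 11.1% of helicase genes and 25% of protein-coding genes. Among shaped peaks of the whole lists the numbers were 289 and 446 in helicase genes, a ratio of 1.54, and 51686 and 53284 in all protein-coding genes, a ratio of 1.03. More shaped RPL22L1 summits were found in 23 helicase genes, beside 20.6% of protein-coding genes (4125), and fewer in 20, beside 28.6% (5724). The surplus thus lay in part of the genes, while 20 had more shaped RPL22 peaks.

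The genes at either end were picked by the log2 ratio of RPL22L1 to RPL22 summits, each plus 1, in lists of equal size. Genes were ranked this way where the lists of equal size together gave them at least 10 summits. Of 41 helicase genes with that many, 8 lay above 1, where 6.19% of 7836 protein-coding genes did, and 1 lay below -1, where 8.89% did. The median was 0.17 over the helicase genes and 0 over all protein-coding genes. The 8 genes were DDX5, DDX21, DHX9, DDX3X, DDX18, DDX17, DHX15 and DDX55, and DDX11 was the 1 below. DDX42, DDX47 and DHX40 stood at exactly 1 and DDX54 at exactly -1. With whole lists 18 genes lay above 1 and none below -1, so the number depends on the reduction to equal size. All 8 were among those 18, which was fixed in advance, since whole lists only add RPL22L1 summits. No share over all protein-coding genes stands beside the 18. In whole lists the ratio of RPL22L1 to RPL22 summits over all protein-coding genes was itself 1.68.

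**Figure D2:**
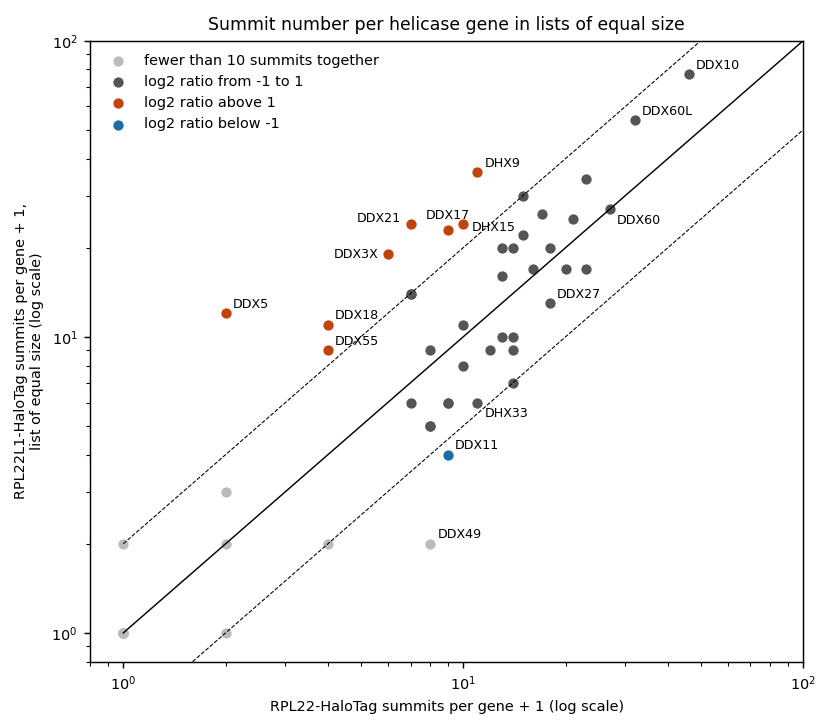
Summits per helicase gene plus 1 in the RPL22-HaloTag list (horizontal, log scale) against the RPL22L1-HaloTag list reduced to the same size (vertical, log scale), 1 library each and 1 point per gene, with coinciding points drawn over each other. The solid line marks equal numbers and the dashed lines log2 ratios of 1 and -1; DDX5, with 1 and 11 summits, is farthest above and DDX11, with 8 and 3, is the tested gene farthest below.

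DDX5 had the largest ratio. It is a helicase of the spliceosome and a co-regulator of transcription. Its 8.613 kb on chromosome 17 held 1 RPL22 summit and 12 RPL22L1 summits, 11 of them in the list of equal size. RPL22L1 summits were 91.7% (61.5 to 99.8%) of the total in lists of equal size, a log2 ratio of 2.58. All 12 RPL22L1 peaks were shaped and none overlapped the RPL22 peak, which lay at 64503824 to 64503860 and ranked 5190 in its list. The highest RPL22L1 peak, at 64500732 to 64500886, was 155 bases wide and ranked 584 of 254413 by score. It is the peak that covered the MIR3064 hairpin shown above, with its summit 33 bases from the hairpin. Further DDX5 peaks ranked 630, 778, 2169 and 2534, so 5 of the 12 were among the best 1% of the list.

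DDX17, the close relative of DDX5 on chromosome 22, had 8 RPL22 and 38 RPL22L1 summits, 22 of them in the list of equal size, a log2 ratio of 1.35. RPL22L1 summits were 73.3% (54.1 to 87.7%) of the total there. Unlike in DDX5, 6 of its 8 RPL22 peaks overlapped an RPL22L1 peak. Its highest RPL22L1 peak, at 38488071 to 38488211, ranked 1845 and overlapped the RPL22 peak of rank 3227. At 1.66 per kb DDX17 had the most RPL22L1 summits per kb of all helicase genes, beside 0.350 RPL22 summits per kb.

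DHX9, known as RNA helicase A and for unwinding long duplexes such as those of inverted repeats, had 10 RPL22 and 69 RPL22L1 summits, 35 of them in the list of equal size. That is 77.8% (62.9 to 88.8%) and a log2 ratio of 1.71. Its highest RPL22 peak was not where most RPL22L1 peaks lay. This peak, at 182839351 to 182839405 with its summit 31 bases after the annotated start, ranked 1202 of 154000. The RPL22L1 peak on the same bases, at 182839353 to 182839383, ranked 49542 of 254413. The stretch printed above is the part they share but for its final base. The same summits also lay within the lncRNA DHX9-AS1, and without strand the RNA they come from cannot be told apart. The highest RPL22L1 peak of DHX9, at 182876130 to 182876205, ranked 3291 and overlapped no RPL22 peak.

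DDX3X, a helicase of translation initiation encoded on the X chromosome, had 5 RPL22 and 34 RPL22L1 summits, 18 of them in the list of equal size, a log2 ratio of 1.66. All 5 RPL22 peaks were shaped and 4 overlapped an RPL22L1 peak. No shaped peak of DDX3X lay beyond 16843 bases from its start, in a gene of 31.165 kb. DDX21, a nucleolar helicase of ribosomal RNA processing, had 6 and 32 summits, 23 in the list of equal size, a log2 ratio of 1.78. Of its 6 RPL22 peaks 5 overlapped an RPL22L1 peak, and the highest peaks of both lists in DDX21, of ranks 3606 and 769, had their summit at the same base, 68974704 on chromosome 10. In the whole lists the RPL22 peaks of DDX3X and DDX21 thus lay mostly at RPL22L1 positions, though not at like ranks. The DDX3X peaks of RPL22 ranks 3950, 4257 and 4494 overlapped RPL22L1 peaks of ranks 80021, 80021 and 201892. The last of these scored 58, too low for the list of equal size. The DDX3X peak of RPL22 rank 27427 overlapped the RPL22L1 peak of rank 4346.

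**Figure D3:**
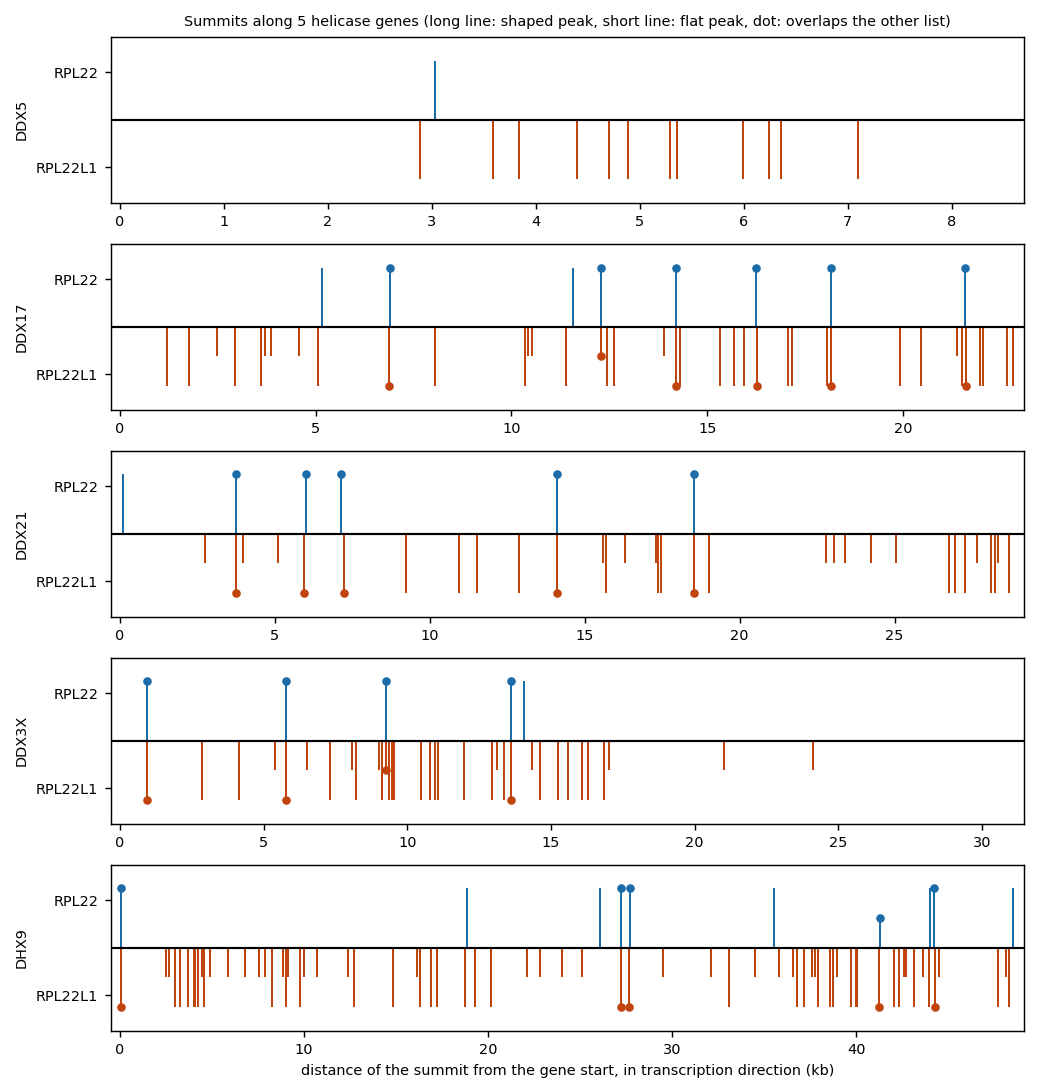
Summits along DDX5, DDX17, DDX21, DDX3X and DHX9, by distance from the gene start in transcription direction (kb), RPL22-HaloTag above and RPL22L1-HaloTag below each line, whole lists, 1 library each. Long lines are shaped peaks, short lines flat peaks and dots peaks that share a base with the other list; no DDX5 peak has a dot, while 4 of 5 RPL22 peaks of DDX3X and 5 of 6 of DDX21 have one.

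The other 3 genes above 1 were DDX18, DHX15 and DDX55. DDX18, a ribosome biogenesis factor, had 3 RPL22 and 26 RPL22L1 summits and a log2 ratio of 1.46, from 10 summits in the list of equal size. DHX15, which takes apart spent spliceosomes, had 9 and 48 and a log2 ratio of 1.26, from 23. DDX55, another ribosome biogenesis factor, had 3 and 13 and a log2 ratio of 1.17, from 8. The intervals of these genes were wide, and in DDX18 the RPL22L1 share of 76.9% reached down to 46.2%. With flat peaks left out DDX55 stood at exactly 1, and it also fell out of the 8 when a summit was given only to the shortest gene around it.

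DDX11, a DNA helicase of sister chromatid cohesion, was the gene below -1. It had 8 RPL22 and 7 RPL22L1 summits, 3 of them in the list of equal size, so that 27.3% (6.02 to 61.0%) were RPL22L1 summits and the log2 ratio was -1.17. Its highest peaks were at the same place in both lists, at 31076715 to 31076745 and 31076711 to 31076745 on chromosome 12, with ranks of 1221 and 6905. With flat peaks left out DDX11 had only 3 and 2 summits, under the minimum of 10, and a ratio of -0.42. Of the 28 genes that kept enough summits, the 1 below -1 was then DHX30, at -1.26. DDX59 and DDX56 stood at -1.58 and -1.22 in that setting, but also with too few summits. DHX30 had a ratio of 0.087 with flat peaks kept, from 15 RPL22 and 16 RPL22L1 summits in lists of equal size, so which gene leaned to RPL22 depends on the flat peaks. DDX54, DHX33, DDX59 and DDX56 followed with -1, -0.87, -0.68 and -0.68, and for DHX33 and DDX59 the sign changed to 0.63 and 0.17 with whole lists. DDX49 had 7 RPL22 and 2 RPL22L1 summits but too few for the ratio.

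By role, each group but the germ line held summits in most of its genes, while the germ line genes held nearly none. The role groups were drawn up from general knowledge with earlier results of these data known, so their counts are a description. Splicing had 12 genes, of which 10 held summits in each list, 119 (98.6 to 142) and 296 (263 to 332) in sum. DDX5, DDX17 and DHX15 were the 3 above a log2 ratio of 1. Among them DDX46, which acts when the spliceosome first binds an intron, had 22 and 51, and DHX8, which releases the mRNA at the end, had 16 and 39. DDX42 had 14 and 46, and 11 of its 14 RPL22 peaks overlapped an RPL22L1 peak, the most along with DDX46 after DDX60L. DDX41, the shortest splicing gene at 5.385 kb, had 6 and 8 summits, which was the most RPL22 summits per kb of all helicase genes at 1.11. Its highest RPL22L1 peak, at 177511986 to 177512015 on chromosome 5, ranked 738 and overlapped no RPL22 peak. DHX35 differed from the others with 22 RPL22 and 28 RPL22L1 peaks of which 5 and 2 were shaped.

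Ribosome biogenesis had 16 genes with 163 (139 to 190) and 331 (296 to 369) summits, and 3 of the 12 with enough summits lay above 1, DDX18, DDX21 and DDX55. The median log2 ratio of the 12 was -0.32, beside 0.17 over all helicase genes, and the other 9 lay at or below 1. Several of its genes had at least as many RPL22 as RPL22L1 summits. DDX54 had 13 and 9, DDX56 had 7 and 5, DDX49 had 7 and 2, DDX51 had 3 and 3 and DHX37 had 13 and 13. DDX27 had 17 and 19 summits, and its highest RPL22L1 peak ranked 1256 in its list.

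Translation and mRNA turnover had 6 genes with 69 (53.7 to 87.3) and 181 (156 to 209) summits. DDX6, a helicase that represses translation and promotes decapping, had 14 and 41 summits. Its highest RPL22L1 peak, at 118748878 to 118748912 on chromosome 11, ranked 302 of 254413, the best rank of any RPL22L1 peak in a helicase gene, and lay 817 bases from the nearest RPL22 peak. DHX36, which unwinds G-quadruplexes, had 13 and 40, DHX29, which helps scan structured leaders, had 20 and 35, and DDX1 had 17 and 31. In these genes the RPL22 peaks were mostly shaped, 14 of 17 in DDX1 and 11 of 14 in DDX6. DDX3Y had none.

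The innate immunity genes DDX60, DDX60L and DHX58 had 58 (44.0 to 74.98) and 134 (112 to 159) summits, nearly all in DDX60 and DDX60L. DDX60 had 26 and 37 summits and a log2 ratio of 0, while its neighbour DDX60L had 31 and 95 and a ratio of 0.75. The highest RPL22L1 peak of DDX60, at 168295091 to 168295135 on chromosome 4, ranked 531. DHX58, a regulator of RNA sensing also called LGP2, had 1 and 2 summits, all flat. In the mRNA export group DDX39A had 8 and 6 summits and the best-ranked RPL22 peak of any helicase gene, at 14409035 to 14409069 on chromosome 19, rank 692 of 154000. It lay 175 bases from the nearest RPL22L1 peak, and the best rank of an RPL22L1 peak in DDX39A was 58143. Of the mitochondrial pair, DHX30 had 15 and 24 summits and DDX28 had 1 and 3.

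The germ line group was DDX4, DDX25, DDX43 and DDX53, genes known mainly from germ cells. The 4 genes held 1 RPL22 and 2 RPL22L1 summits in all, every one of them flat. That is 0.00763 and 0.0153 summits per kb over the group, beside 0.240 and 0.537 over all helicase genes. Over all protein-coding genes the values were 0.103 and 0.174. The single RPL22 summit, in DDX4, lay within a pseudogene inside it. Shaped peaks were thus listed at 0 in this group in both lists. For DDX53 the flanks of the gene also held few summits, as given below.

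Pairs of related genes were set side by side, because reads of paralogs may have been divided or dropped in a way the lists do not show. The pairs were chosen from general knowledge, and their sequence identity was not computed. DDX5 and DDX17 had 1 and 8 RPL22 and 12 and 38 RPL22L1 summits. DDX19A and DDX19B, which adjoin on chromosome 16, had 9 and 7 RPL22 and 16 and 12 RPL22L1 summits. Of those in DDX19B, 2 RPL22 and 10 RPL22L1 summits lay within the lncRNA DDX19A-DT and cannot be assigned without strand. Shaped RPL22L1 summits numbered 4 in DDX19A and 0 in DDX19B. DDX21 and DDX50, also neighbours, had 6 and 11 RPL22 summits but 32 and 15 RPL22L1 summits, an opposite order. DDX39A held summits in both lists and DDX39B in neither, and the same was true of DDX3X and DDX3Y. On the Y chromosome the lists held 51 and 61 peaks in all.

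DDX39B, DHX16, DDX24 and DDX52 lay in stretches where neighbouring genes held hardly a summit either. This was seen after the counts were known. Within 500 kb on each side DDX24 had 17 other protein-coding genes of which 0 had a summit, DDX39B had 59 of which 1 did, DHX16 had 36 of which 1 did and DDX52 had 11 of which 3 did. The summits of both lists in those flanks were 5, 1, 1 and 7. No other helicase gene with at least 10 neighbours had fewer than 111. Such stretches, defined by at least 10 neighbours and fewer than 10 summits, held 7.41% of helicase genes and 2.05% of protein-coding genes. DDX3Y and DDX53 also had few flank summits, 5 and 8, but only 2 and 1 neighbours, so the definition leaves them out. DHX36, with 2 neighbours and 11 flank summits, held summits of its own in both lists. DDX39B and DHX16 lie on chromosome 6, where the lists also held 23 and 18 peaks on alternate sequences of the assembly, and DDX52 on chromosome 17, where they held 4 and 14. For DDX24, on chromosome 14, there were 0 and 0. What part the assignment of reads had in these empty stretches was not tested. DDX43 is a contrast, with no summit of its own but 79 and 135 in its flanks. Without DDX39B, DHX16, DDX24 and DDX52, 46 and 47 of the remaining 50 helicase genes had a summit.

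Peaks at the same place in both lists were counted where they shared at least 1 base. Such peaks were present in 38 helicase genes in each list, or 70.4% (56.4 to 82.0%), where 39.9% of protein-coding genes had one when RPL22 peaks were counted and 39.9% when RPL22L1 peaks were. Of the RPL22 peaks in helicase genes 173 of 526 overlapped, or 32.9% (28.9 to 37.1%), beside 19.1% over all protein-coding genes. Of the RPL22L1 peaks 176 of 1179 did, or 14.9% (12.9 to 17.1%), beside 11.4%. Both shares rest on the kind of peak. Among shaped peaks 53.3% (47.4 to 59.2%) of RPL22 and 27.6% (23.5 to 32.0%) of RPL22L1 peaks overlapped, beside 39.7% and 26.5% over all protein-coding genes. Among flat peaks the shares were 8.02% and 7.23%, beside 6.12% and 6.80%. For shaped RPL22L1 peaks and for flat peaks of both lists the share over all genes was thus within the interval of the helicase genes.

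The share also followed the rank of a peak within its own list. Of the RPL22 peaks in helicase genes that ranked in the best 1%, 3 of 4 overlapped. From 1 to 5% it was 38 of 54, or 70.4% (56.4 to 82.0%), beside 64.5% over all protein-coding genes, and from 5 to 20% it was 69 of 125, or 55.2% (46.0 to 64.1%), beside 39.0%. Below that 63 of 343 overlapped, or 18.4% (14.4 to 22.9%), beside 10.8%. The helicase genes thus stood above the other genes mainly among RPL22 peaks of middle and low rank. Among RPL22L1 peaks the widest gap was from 1 to 5%, where 41 of 72 overlapped, or 56.9% (44.7 to 68.6%), beside 42.2%.

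**Figure D4:**
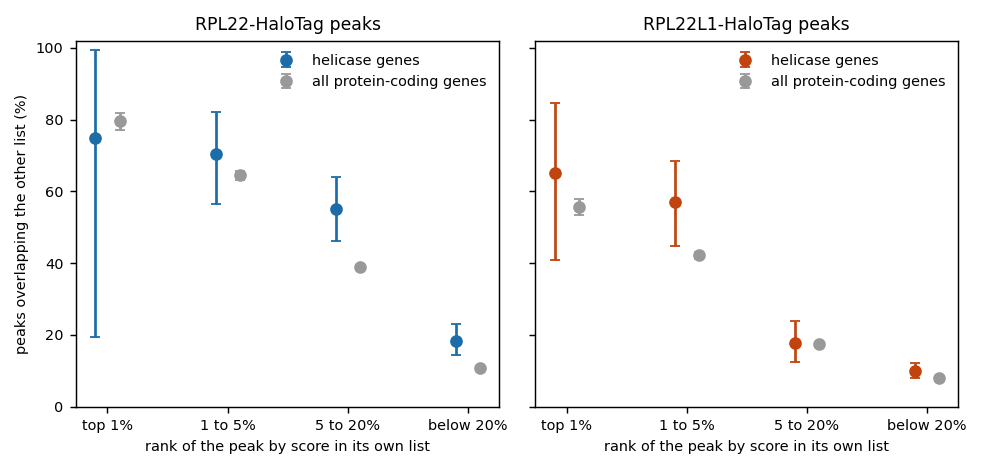
Share of peaks (%) that share at least 1 base with the other list, by the rank of the peak in its own list, for helicase genes (coloured) and all protein-coding genes (grey), 1 library each. Bars are exact 95% intervals for counting error; among RPL22-HaloTag peaks ranked from 5 to 20% the helicase share is 55.2% beside 39.0%.

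Overlap differed widely from gene to gene. It covered 7 of 9 RPL22 peaks in DHX15, 5 of 6 in DHX40 and 15 of 31 in DDX60L, and none of 7 in DDX49, DDX59 and DDX19B. The overlapping pairs with the best RPL22 rank lay in DHX9, DDX11, DDX46, DHX33 and DDX42. In DDX46 the pair had ranks of 1393 and 7833, in DHX33 of 2102 and 70507 and in DDX42 of 2242 and 1161. A high rank in the RPL22 list thus went with RPL22L1 ranks that ranged from 1161 to 70507. The RPL22 peaks without overlap and with the best ranks lay in DDX39A, DDX23, DDX10, DHX29 and DDX27. Those of DDX23 and DDX27 were 73 and 30 bases from an RPL22L1 peak, while that of DDX10 was 1941 bases away and lay within a lncRNA inside the gene. Over all 353 RPL22 peaks without overlap the median distance to the nearest RPL22L1 peak was 586 bases, with quartiles of 147 and 1464.

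Along the genes, summits were spread out with a rise at the end. The strand was known for 49 of the 54 genes, those in the promoter table. The final 10% of gene length held 15.4% (12.4 to 18.9%) of RPL22 summits and 14.6% (12.6 to 16.8%) of RPL22L1 summits in helicase genes, beside 15.8% and 17.6% in all protein-coding genes with a known strand. For shaped peaks the shares were 18.8% and 18.2%, beside 19.0% and 21.7%. The first 10% held 9.70% and 8.30%, beside 12.1% and 10.1%. For RPL22 summits the final share over all genes lay within the helicase interval, and for RPL22L1 summits it lay above the upper bound. For shaped peaks it lay within the helicase intervals, 14.4 to 24.0% for RPL22 and 14.7 to 22.2% for RPL22L1. The highest peak of a gene lay in the final 10% in 5 of 42 genes by RPL22 peaks, 11.9% (3.98 to 25.6%). By RPL22L1 peaks it did so in 5 of 43, 11.6% (3.89 to 25.1%), so both shares were close to an even spread. DDX6, DDX39A and DDX27 were among them.

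Around the annotated starts peaks were few. The 49 genes with a promoter window, 250 bases before to 50 after a start, had 66 windows in all. Of these genes 10 had an RPL22 peak in a window, or 20.4% (10.2 to 34.3%), where 10.5% of protein-coding genes did. An RPL22L1 peak was present in 6, or 12.2% (4.63 to 24.8%), where 8.43% did. Both backgrounds lay within the helicase interval. Most of these peaks were flat. The peaks of DDX20, DDX19B and DHX9 were shaped, and 1 of the pair in DDX46 was. In DDX42 the flat RPL22 and RPL22L1 peaks on the printed stretch had ranks of 100612 and 83348, with summits 96 and 101 bases before the start used in the promoter table but inside the bounds of the gene. The RPL22 peak of DHX9 had the best rank in its list, 1202, and that of DDX19B followed with 29389. The DDX19B summit lay 104 bases after the start used in the promoter table, but 9523 bases from the start of the gene bounds.

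The helicase genes also host other genes. In all 11 small RNA genes lie inside them, 5 microRNAs, 5 snoRNAs and 1 snRNA, and none held a summit of either list. No share of all small RNA genes with a summit stands beside this count. SNORD117 and SNORD84 lie in DDX39B and MIR378J in DDX52, in the nearly empty stretches described above, so their lack of summits says little. A peak shared bases with MIR3064 in DDX5 and MIR1226 in DHX30 only, where 3.14% of 1913 microRNA genes shared a base with an RPL22 peak and 5.44% with an RPL22L1 peak. At MIR1226 the RPL22 peak, at 47849528 to 47849557, ranked 64412 and covered 3 bases, and the RPL22L1 peak, at 47849500 to 47849556, ranked 18221 and covered 2. Both summits lay before the hairpin. At MIR3064 the RPL22L1 peak covered all 66 bases, while MIR5047, also inside DDX5, was 194 bases from the nearest summit. Other genes that overlap a member and are shorter than it took up 35 RPL22 and 77 RPL22L1 summits in all. LOC124902750, a lncRNA within DDX10, held 17 and 26, ETV4 within DHX8 held 6 and 13, and BCCIP, which overlaps DHX32, held 2 and 12. DDX19A-DT, a lncRNA that overlaps DDX19B, held 2 and 10. These summits cannot be assigned to either gene without strand.

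RNA helicases whose symbols do not meet the rule were counted for comparison. The 14 genes held 207 (180 to 237) and 484 (442 to 529) summits, with at least 1 RPL22 summit in 11 genes and 1 RPL22L1 summit in 13. None of the 9 with enough summits lay beyond a log2 ratio of 1 or -1. EIF4A2, the translation initiation helicase, held 2 RPL22L1 summits, the higher of which ranked 4 of 254413, and 0 RPL22 summits. That summit lay within SNORA81, a snoRNA gene inside EIF4A2, and the peak cannot be given to either. YTHDC2, a helicase that reads modified RNA, had its highest peaks at ranks 921 and 1206, and MTREX, the helicase that feeds the nuclear exosome, at 2306 and 2521, both within a lncRNA gene that overlaps it.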

How the data were processed

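The authors deposited 1 peak list per library for RPL22-HaloTag and RPL22L1-HaloTag cells. Each row gives a position, a whole-number score in column 5 and a summit offset in column 10. This score, as the authors deposited it, was used for ranks and minimums inside a list and never between lists. The submitters' processing notes name cutadapt 4.8, STAR 2.7.10a, UMI-tools 1.1.5, MACS3 3.0.0a6 and the build hg38, without roles or order. The control, the cutoff and the handling of reads that match several places are not given in the sources used here. The lists give no strand.

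Groups follow the genotype labels, with 1 library each. A summit, column 2 plus column 10 plus 1, was counted in every gene whose RefSeq bounds contain it, exons and introns alike. To make lists of equal size, RPL22L1 peaks down to a score of 98 were kept, with ties at that score taken by position. The ratio used a pseudocount of 1 and at least 10 summits in both lists of equal size together. Shares carry exact 95% intervals and cover counting error only, with the depth unknown. The members, role groups and rules were chosen with earlier results of these data known. Genes named in full are those at the ends of the rankings by score, summit number, summits per kb and ratio, those with the best overlapping and lone peaks, those without summits and those that hold other genes. Alternatives were flat peaks left out, the median score as a minimum, whole or equal lists, the shortest gene, other overlaps, minimums and pseudocounts. Counting was tested on simulated data. Scripts ran in Python 3.11.15. They used scipy 1.17.1, numpy 2.4.6 and pandas 2.3.3, with matplotlib 3.10.9 for plots.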

Additional observations from a re-analysis of the deposited data

How the results depend on the processing

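With flat peaks left out, none of the 9 genes past a log2 ratio of 1 or -1 changed sign, though DDX11 then had too few summits. A pseudocount of 0.5 cannot change a sign. Whole lists only add RPL22L1 summits, so there the sign could change for DDX11 alone, which stood at -0.17. Of 60 alternative values of the main results 37 stayed within their limits and 23 moved. With flat peaks left out, summits in helicase genes were 289 in the RPL22 and 446 in the RPL22L1 list, medians per kb 0.120 and 0.137, and overlap shares 39.1% and 25.6%. With only peaks that reach their list's median score, RPL22L1 summits were 582, medians per kb 0.167 and 0.265, flat shares 25.1% and 42.6%, and the RPL22L1 overlap share 20.8%. In lists of equal size, RPL22L1 summits were 697, their median per kb 0.310, and overlap shares 27.0% and 20.8%; the RPL22 list is not changed by this setting except through the other list. Overlap of 50% of both peaks gave 19.6% and 8.74%. Whole lists put 18 genes above a log2 ratio of 1 and 0 below -1. For this and the other alternative ratio settings no share over all protein-coding genes is given, so the counts describe the helicase genes alone. A pseudocount of 0.5, a minimum of 5 summits and the shortest gene each put 2 below -1, with DDX54, DDX49 and DDX54 as the added gene. With flat peaks left out 10 of 28 genes lay above 1, 7 of them among the 8. The gene below -1 was then DHX30, at -1.26, while DDX11 had too few summits to be ranked. Merging touching peaks changed no count, since no peaks of a list touch. Of 42 alternative ratios of named genes, 41 stayed within their counting intervals, which are wide; that of DHX30 moved. The ratios of DDX17, DHX15, DDX55 and DHX30 were added after seeing the data. No paired analysis was possible because the labels give 1 library per group. The number of reads is unknown, so what depth limits cannot be stated.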
